A study of Drosophila melanogaster with 2 samples.

Results

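Distal intronic peaks of the Escargot (esg) ChIP-seq experiment are the peaks whose summit lay inside an annotated transcript, in no exon of any transcript, and over 5000 bp from the nearest annotated start site. They were chosen by position only, from the summit of each peak in the main list and the Ensembl annotation, and no signal value entered the choice. There were 568 of them among the 4397 peaks of the main list on the 7 chromosome arms, a share of 12.9% (95% exact binomial interval 11.9 to 13.9), and they made up 25.1% of the 2264 intronic summits. They are set against all other 3829 peaks, the 1696 intronic peaks at most 5000 bp from a start site (near intronic peaks), and the 224 intergenic peaks over 5000 bp from a start site (distal intergenic peaks). The experiment precipitated chromatin with an antibody against GFP from whole Drosophila melanogaster embryos, 0 to 24 h old, of a line with a transgene for an esg-eGFP fusion protein. It had 1 group of 2 biological replicates and no second condition. The embryos were not sorted, so all cell types and all stages of embryogenesis are mixed, and the fused protein is the one that was precipitated. Intervals cover counting error only, read depth is unknown, and p-values describe the peaks of these libraries.

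Escargot belongs to the Snail proteins, transcription factors with zinc fingers, and is known for repressing target genes through E-box sequences and for keeping stem and imaginal cells undifferentiated. Long introns of developmental genes are known to hold enhancers, which act on a start site from a distance by bringing bound transcription factors to it. In ChIP-seq a peak marks a place where precipitated fragments pile up, and its summit is the base of highest pile-up, by which the site of binding is usually placed.

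The DNA under the peaks is shown first, as dm6 coordinates with the sequence of RefSeq's assembly of that genome release. Peaks on 1 arm, whose sequence is not shown here, were left out of all 5 sets before the strongest were taken, by signal value. The first set holds the 101 bp centred on the summit of the strongest 6 distal intronic peaks, because it shows what the centre of a peak looks like. Capitals would mark a match to ACAGTG or CAGGTG on either strand, and these 6 centres had none. Their GC content was between 19.8% and 41.6%.
CG32486 (chr3L:3060746-3060846, plus strand): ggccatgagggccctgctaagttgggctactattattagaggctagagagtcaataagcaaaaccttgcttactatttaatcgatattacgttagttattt
simj (chr3L:10682918-10683018, plus strand): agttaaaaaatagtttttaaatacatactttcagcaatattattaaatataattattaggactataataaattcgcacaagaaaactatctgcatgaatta
Gug (chr3L:8458282-8458382, plus strand): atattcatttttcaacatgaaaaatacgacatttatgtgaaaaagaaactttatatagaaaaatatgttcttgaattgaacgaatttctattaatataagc
Raf (chrX:2300650-2300750, plus strand): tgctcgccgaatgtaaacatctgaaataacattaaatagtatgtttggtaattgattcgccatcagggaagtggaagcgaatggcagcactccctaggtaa
Hr4 (chrX:1963888-1963988, plus strand): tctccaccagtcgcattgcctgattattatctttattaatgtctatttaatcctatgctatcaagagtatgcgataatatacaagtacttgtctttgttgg
Su(Tpl) (chr3L:19903239-19903339, plus strand): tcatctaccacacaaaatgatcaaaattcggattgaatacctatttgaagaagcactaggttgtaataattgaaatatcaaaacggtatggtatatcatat
The second set shows the strongest 3 distal intronic peaks in which the hexamer ACAGTG stood on the left of the summit and its reverse complement CACTGT on the right, within the stretch shown, so that both copies read towards the summit. Capitals mark the 2 copies, each line is 231 bp of the plus strand, and the summit is the middle base. The copies lay 73.5 bp left and 70.5 bp right of the summit in Hr4, 107.5 and 58.5 bp in Snoo, and 64.5 and 100.5 bp in heca.
Hr4 (chrX:1963823-1964053, plus strand): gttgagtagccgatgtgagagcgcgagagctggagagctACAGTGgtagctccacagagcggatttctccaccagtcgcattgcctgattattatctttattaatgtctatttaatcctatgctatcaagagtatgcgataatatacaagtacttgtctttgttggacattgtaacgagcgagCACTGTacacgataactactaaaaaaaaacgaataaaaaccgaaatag
Snoo (chr2L:7925491-7925721, plus strand): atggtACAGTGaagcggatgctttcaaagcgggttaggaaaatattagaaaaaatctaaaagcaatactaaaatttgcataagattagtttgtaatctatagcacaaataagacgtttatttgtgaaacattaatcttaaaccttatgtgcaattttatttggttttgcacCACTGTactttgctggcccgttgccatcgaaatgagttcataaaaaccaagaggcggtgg
heca (chr3R:30296032-30296262, plus strand): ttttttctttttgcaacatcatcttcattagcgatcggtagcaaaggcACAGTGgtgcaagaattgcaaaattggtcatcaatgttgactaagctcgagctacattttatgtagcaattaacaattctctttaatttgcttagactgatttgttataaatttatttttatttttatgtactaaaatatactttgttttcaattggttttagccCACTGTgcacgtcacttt
The third set aligns the strongest 8 distal intronic peaks with ACAGTG within 100 bp of the summit, each read on the strand that spells the capitals. Of these 8 copies, 7 read towards the summit, and all lay 58.5 to 86.5 bp from it.
Gug (chr3L:8458226-8458265, minus strand): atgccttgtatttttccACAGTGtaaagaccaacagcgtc
Hr4 (chrX:1963989-1964028, minus strand): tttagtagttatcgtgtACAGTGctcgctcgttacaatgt
rdx (chr3R:14012628-14012667, plus strand): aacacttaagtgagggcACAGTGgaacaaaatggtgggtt
Lrch (chr2L:17379146-17379185, minus strand): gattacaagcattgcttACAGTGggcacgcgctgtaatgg
fz (chr3L:14303966-14304005, plus strand): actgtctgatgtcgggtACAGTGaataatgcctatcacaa
Snoo (chr2L:7925645-7925684, minus strand): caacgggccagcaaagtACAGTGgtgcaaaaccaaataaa
gpp (chr3R:6424179-6424218, minus strand): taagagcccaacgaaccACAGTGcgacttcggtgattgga
CG6966 (chr3R:15087694-15087733, plus strand): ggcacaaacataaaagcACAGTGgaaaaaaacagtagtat
The fourth set does the same for CACTGA, another of the leading hexamers, with the capitals again marking the match. Here too 7 of 8 copies read towards the summit, at 47.5 to 84.5 bp, and a run of A often followed the capitals.
Gug (chr3L:8458397-8458436, minus strand): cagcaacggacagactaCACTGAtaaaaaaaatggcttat
AdamTS-B (chrX:5706041-5706080, plus strand): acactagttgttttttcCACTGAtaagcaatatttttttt
CG6966 (chr3R:15087848-15087887, minus strand): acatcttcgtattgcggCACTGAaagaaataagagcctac
Snoo (chr2L:7916421-7916460, plus strand): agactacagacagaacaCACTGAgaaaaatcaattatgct
Myo10A (chrX:10936851-10936890, minus strand): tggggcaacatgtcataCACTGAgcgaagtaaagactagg
Raf (chrX:2304171-2304210, minus strand): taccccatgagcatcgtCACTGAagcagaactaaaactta
lilli (chr2L:2897034-2897073, plus strand): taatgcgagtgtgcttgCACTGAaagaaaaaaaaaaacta
Fas3 (chr2L:18325205-18325244, plus strand): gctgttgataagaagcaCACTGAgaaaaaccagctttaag
The fifth set holds the strongest 4 peaks with CAGGTG, the E-box best known for binding by Snail proteins, within 100 bp of the summit. Capitals mark the E-box, which lay 8.5 to 97.5 bp from the summit, and 2 of 4 copies read towards it. The sets with paired copies, ACAGTG and CACTGA were chosen after the values of all hexamers had been seen.
Raf (chrX:2300765-2300800, plus strand): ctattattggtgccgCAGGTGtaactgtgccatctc
simj (chr3L:10678886-10678921, plus strand): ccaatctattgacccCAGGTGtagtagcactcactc
Hr4 (chrX:1947764-1947799, minus strand): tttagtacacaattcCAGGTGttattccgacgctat
CG43759 (chrX:18951542-18951577, plus strand): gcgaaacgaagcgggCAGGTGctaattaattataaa

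The hexamers ACAGTG and CACTGA were among those more frequent at summits than in the DNA beside them. Each summit window of 100 bp either side was compared with the nearest window of its own flanks, 250 to 5000 bp away and over no peak, whose GC content was within 2 percentage points. A partner was found for 560 peaks, at a median of 550 bp, and mean GC content was 34.7% at summits and 35.1% in flanks. Of all hexamers, each counted with its reverse complement, 25 were more frequent and 8 less frequent at summits (exact McNemar test, two-sided, Benjamini-Hochberg adjusted p under 0.05), or 1.59% of those tested. At an unadjusted exact p under 0.05 there were 258. Of the 25, 12 held CAGT or AGTG on either strand, and so did 8 of the first 10 by p. AGTGTA was in 23.6% of summit windows and in 8.39% of flank windows (exact adjusted p = 3.46e-10). CAGTGC was in 23.8% and 7.86% (exact adjusted p = 3.46e-10), and ACAGTG was in 21.3% (17.9 to 24.9) and 6.61% (4.69 to 8.99; exact adjusted p = 2.57e-09). The shared pentamer CAGTG was in 60.2% of summit windows and 24.8% of flank windows, and 18.2% of summit windows held 2 or more copies, against 4.29% of flank windows. These hexamers overlap each other, so the 25 are not separate results. In the list of replicate 2 alone 16 hexamers were more frequent at summits, of which 13 were among the 25, and in that of replicate 1 alone 17, again with 13 shared.

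The other 13 of the 25 held neither CAGT nor AGTG. Among them, GGGTAT was in 13.9% of summit windows and 5.36% of flank windows (exact adjusted p = 0.000406), and GAGAAA was in 29.1% and 17.5% (exact adjusted p = 0.00157). These 13 need not be separate from the rest. The commonest bases after CACTGA at summits were G, A, A and A, so GAGAAA can overlap it in CACTGAGAAA. CTGTGC, in 16.25% and 6.61% (exact adjusted p = 5.24e-05), is the reverse complement of GCACAG, which can overlap ACAGTG in GCACAGTG. The E-box CAGGTG, in either orientation, was in 6.25% of summit windows (4.39 to 8.59) and 2.86% of flank windows (1.64 to 4.60), a difference that did not pass (exact adjusted p = 0.182). With flanks 1000 bp away and no match on GC content, whose GC content was 40.3% to 40.6%, the difference for CAGGTG had the opposite sign, at -0.53 and -0.70 percentage points, and did not pass either. With a limit of 2000 bp in place of 5000 bp for the distance, 6.42% of summit windows and 3.46% of flank windows held it, and this passed (exact adjusted p = 0.0481). In the list of replicate 2 alone the shares were 4.10% and 3.86%, and in that of replicate 1 alone 4.48% and 3.92%, and neither difference passed (exact adjusted p = 1 in both). None of the other 9 sequences of the form CANNTG passed. CAAGTG was in 14.3% of summit windows and 10% of flank windows (exact adjusted p = 0.298), and CAGCTG was in 3.57% and 6.61% (exact adjusted p = 0.315). ACAAAA was the leading hexamer among the 8 that were less frequent at summits, with 30.7% of summit windows against 42.1% of flank windows (exact adjusted p = 0.00869).

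The hexamer ACAGTG did not sit on the summit but on both sides of it. In windows of 50 bp, there were 8.45 matches per 100 distal intronic peaks at 100 bp left of the summit and 8.27 at 100 bp right, against 2.46 at the summit and 1.58 at 400 bp left. Its orientation changed with the side. Within 150 bp of the summit, 85 matches on the left were on the plus strand and 27 on the minus strand, and on the right 26 were on the plus strand and 78 on the minus strand. Thus 163 of 216 matches, or 75.5% (69.2 to 81.0), read towards the summit, at a median distance of 87.5 bp. From 250 to 500 bp away, 54 of 100 did (43.7 to 64.0). The orientation was described without a test, since the side was read from these peaks. Among all other peaks, which share the same libraries and are no independent check, 1086 of 1454 matches (74.7%, 72.4 to 76.9) read towards the summit. A copy facing inward on both sides was found in 34 distal intronic peaks (5.99%), with a median of 165.5 bp between the copies. Such pairs were about as frequent elsewhere, in 5.35% of all other, 7.19% of near intronic and 7.14% of distal intergenic peaks. The median gaps there were 168, 167.5 and 160 bp.

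**Figure D1:**
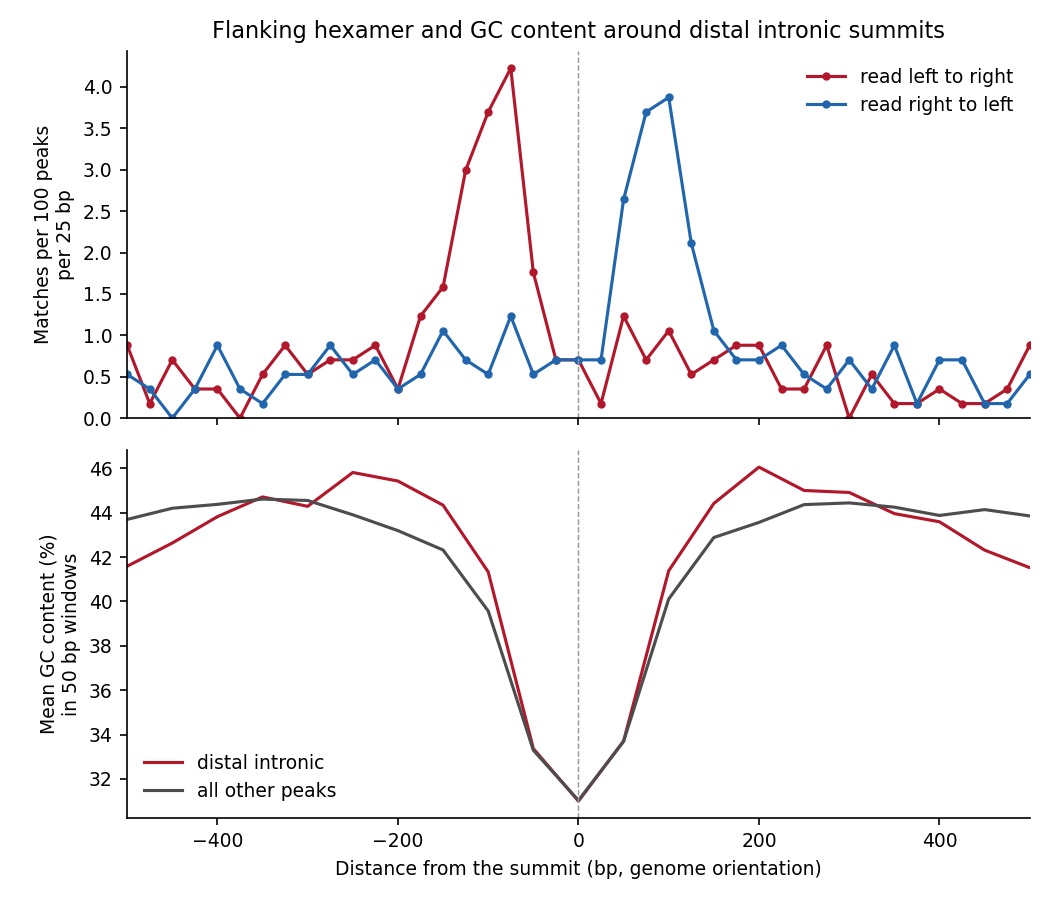
Upper plot: matches of ACAGTG per 100 distal intronic peaks and 25 bp (y axis) against the distance of the match from the summit (x axis, bp), with matches on the plus strand in red and on the minus strand in blue. Plus-strand matches peak at 4.23 per 100 peaks 75 bp left of the summit and minus-strand matches at 3.87 per 100 peaks 100 bp right of it. Lower plot: mean GC content in windows of 50 bp around distal intronic summits (red) and all other summits (grey), at 31.0% in the middle for both.

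Other leading hexamers also had a preferred orientation on each side. Each is given in the orientation that had more matches towards the summit in distal intronic peaks, a choice that the intervals ignore. The shared pentamer did not face 1 way, since ACAGTG and CAGTGG hold CAGTG and CACTGA holds its reverse complement. Within 150 bp, CAGTG itself read towards the summit in 288 of 681 matches (42.3%, 38.5 to 46.1). CACTGA read towards the summit in 166 of 203 matches (81.8%, 75.8 to 86.8), TACACT in 158 of 206 (76.7%, 70.3 to 82.3), CAGTGG in 136 of 170 (80.0%, 73.2 to 85.7) and GAGAAA in 212 of 267 (79.4%, 74.0 to 84.1). Over all their matches, the median distances were 77.5, 78, 83.5 and 75.5 bp. In all other peaks the shares for the same orientation were 75%, 74.1%, 75.7% and 73.4%. Some of these hexamers can overlap, as CACTGA and GAGAAA do in CACTGAGAAA, so their values are not separate. ATACCC, the reverse complement of GGGTAT, read towards the summit in 82 of 146 matches (56.2%, 47.7 to 64.4), an interval that includes equal shares. CAGGTG had 32 of 54 (59.3%, 45.0 to 72.4) and its matches per 100 peaks lay between 1.06 and 3.17 in all windows from 500 bp left to 500 bp right, with 1.58 at the summit.

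The bases beside ACAGTG and CACTGA differed from those beside the same hexamers in flank windows. Positions are counted from 1 at the first base of the capitals. Around the 135 ACAGTG matches at summits, the base before the hexamer (position 0) was C in 48.1% and the base before that was G in 53.3%, and position 7 was G in 50.4%. Around the 39 flank matches the same bases had shares of 23.1%, 10.3% and 28.2%. After the 139 CACTGA matches at summits, positions 10, 11 and 12 were A in 77.0%, 73.4% and 70.5%, against 47.8%, 37.0% and 30.4% after the 46 flank matches. The base 2 before CACTGA was T in 56.8% at summits and 41.3% in flanks. GC content was lowest at the summit, with a mean of 31.0% in the central 50 bp, 46.1% at 200 bp right and 41.5% at 500 bp right. In all other peaks it was 31.0% at the summit and 43.6% at 200 bp right.

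The direction of these differences was mostly the same in other peaks. All 25 were more frequent at summits than in matched flanks in all other peaks and in near intronic peaks as well, and 24 of 25 were in distal intergenic peaks. Of the 8 less frequent hexamers, all 8 were less frequent in all other peaks too, 6 of 8 in near intronic and 6 of 8 in distal intergenic peaks. No test was made of these directions, and how hexamers rank in those peaks was not examined. ACAGTG was found within 100 bp of the summit in 119 distal intronic peaks (21.0%), against 20.1% of all other peaks, 23.5% of near intronic and 17.9% of distal intergenic peaks, with exact adjusted p of 0.714, 0.338 and 0.451 (Fisher's exact test, two-sided, Benjamini-Hochberg over 24 tests). AGTGTA had shares of 23.6% in distal intronic windows with a partner, 17.97% in all other peaks, 18.7% in near intronic and 25.1% in distal intergenic peaks. CACTGA had 21.6%, against 16.2%, 17.4% and 26.5% in the same sets. These last differences were not tested.

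CAGGTG was present in 35 distal intronic peaks (6.16%), against 5.14% of all other peaks (exact adjusted p = 0.419), 5.01% of near intronic peaks (0.397) and 3.13% of distal intergenic peaks (0.179). Over the whole list 5.28% of peaks had it. Median signal was 92.4 in peaks with the E-box and 93.9 in those without, and 15 of the 35 were on both replicates' thresholded lists. ACAGTG peaks had a median signal of 104.7, against 92.3 in distal intronic peaks without it. Both hexamers were held by 5 peaks, and 419 held neither. Whether the hexamers avoid each other was not tested. A run of at least 8 A or 8 T was in 129 distal intronic peaks (22.7%), against 16.5% of all other peaks (exact adjusted p = 0.00150), 19.2% of near intronic peaks (0.128) and 17.4% of distal intergenic peaks (0.175). The whole list had 17.3%. This difference was lost in windows of 50 bp, at 10.2% against 8.98% of all other peaks (exact adjusted p = 0.516), in the list of replicate 1 alone, at 21.8% against 17.04% (0.120), in the other thresholded list of the series, at 21.2% against 16.8% (0.0992), and with a limit of 10000 bp, at 18.6% against 17.2% (0.689).

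The signal value that the authors gave each peak was lower far from start sites. Distal intronic peaks had a median of 93.8 (quartiles 73.1 and 140.8, range 2.15 to 954.8), against 111.5 in all other peaks, 113.7 in near intronic and 89.8 in distal intergenic peaks. In the strongest 20% of the whole list there were 56 of 568 distal intronic peaks (9.86%), against 21.5% of all other peaks (exact adjusted p = 1.60e-10), 21.3% of near intronic peaks (2.38e-09) and 11.2% of distal intergenic peaks (0.689). Among distal intronic peaks distance made little difference. The median was 93.5 from 5000 to 10000 bp, 92.2 from 10000 to 20000 bp and 96.2 beyond. The unit of the value is not stated, but where both replicates' ranked lists held the summit, the main list's value was 0.999 times the sum of the 2 replicate values at the median (5th to 95th percentile 0.923 to 1.06). Of the 568 peaks, 23 had a value under 20, and every one of these had another summit within 336 bp, the commonest peak width, which 494 of 568 peaks (87.0%) had.

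The strongest distal intronic peak lay in the first intron of CG32486, at chr3L:3060796, 5717 bp from the nearest start site, which belonged to another gene, CG16753. Its signal was 954.8, with 479.6 in replicate 1 and 476.3 in replicate 2. The next, at chr2R:10220063, stood where introns of CG46321, Hr3 and CG12912 overlap, and its signal was 870.6, with 463.4 and 397.5 in the replicates. Hr3 is a nuclear receptor of the ecdysone response. The third lay in simj, which encodes a subunit of the NuRD chromatin remodelling complex, at chr3L:10682968. It had 719.2, with 356.0 and 365.8 in the replicates, and a second simj peak 4162 bp away had 413.5. Gug, which encodes the corepressor Atrophin, had 586.1, with 296.1 and 287.6 in the replicates. Raf, the kinase of the MAP kinase cascade, had 585.1, with 301.2 and 288.5. The Raf and the second simj peak held CAGGTG, and they were the strongest 2 that did. Among the strongest 5, replicate 1 gave the higher value in 4, and replicate 2 did in simj.

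The rest of the strongest 15 had the following hosts. The corepressor gene sbb (scribbler) had 527.0 and 409.7 at 2 summits of 1 intron, and the nuclear receptor gene Hr4 had 512.9. A peak in overlapping introns of Su(Tpl), an elongation factor gene, and Mi-2, the NuRD ATPase gene, had 487.7. The peak of rdx, whose product brings the Hedgehog pathway factor Ci to degradation, had 402.4, and that of JIL-1, a histone H3 kinase gene, had 381.2. The zinc finger factor genes dar1 and mamo had 371.4 and 358.6, and Lrch, a cytoskeletal gene, had 348.4. Across these, replicate 1 values ran from 156.2 to 268.4 and replicate 2 values from 155.5 to 260.0, and the dar1 peak had the widest difference, with 156.2 in replicate 1 and 212.3 in replicate 2. The mamo peak was far from any start site, at 42285 bp.

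Fewer of the distal intronic peaks than of the other peaks were found in both replicates, here meaning on both replicates' own thresholded lists. By an overlap of 1 bp, 278 distal intronic peaks (48.9%) were on both replicates' own thresholded lists, 61 only on that of replicate 1, 105 only on that of replicate 2, and 124 (21.8%) on neither. The share on both was lower than in all other peaks (58.8%, exact adjusted p = 5.83e-05) and near intronic peaks (61.0%, 4.02e-06), and was 47.3% in distal intergenic peaks (0.724). Over the whole list it was 57.5%. The share on neither list was 17.7% in all other peaks (0.0475), 15.7% in near intronic peaks (0.00312) and 29.0% in distal intergenic peaks (0.0829). Median signal was 142.5 for peaks on both lists, 81.7 for those on 1 and 67.3 for those on neither. Of the 23 peaks with a signal under 20, 9 overlapped the list of replicate 1 and 17 that of replicate 2. For none of the 23 did ranked peaks of both replicates hold the summit, so an overlap need not be at the same summit. Within 5 equal parts of the whole list by signal, the share on both lists was close in distal intronic and all other peaks, from the strongest part down 100% and 99.9%, 99.1% and 96.5%, 67.2% and 67.0%, 15.3% and 14.6%, and 7.69% and 9.50%.

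With the ranked lists of the replicates, which hold weaker peaks too, 99.1% of distal intronic peaks and 99.0% of all other peaks overlapped both (exact adjusted p = 1), which leaves little room for a difference. In the upper 50% of the main list by signal the shares were 94.2% and 94.9% (0.831). The other thresholded list of the series held 417 distal intronic peaks (73.4%), against 81.1% of all other peaks (0.000116), 83.3% of near intronic peaks (4.02e-06) and 73.2% of distal intergenic peaks (1.00). In the upper 50% by signal it held 99.6% and 99.8% of distal intronic and all other peaks (0.774). The summits of 536 distal intronic peaks (94.4%) lay in a ranked peak of both replicates. Across these 536 peaks, which share their libraries, log2 signal in replicate 1 and replicate 2 had a Pearson correlation of 0.85 and a Spearman correlation of 0.751, and the median log2 ratio of replicate 1 over replicate 2 was 0.13 (SD 0.40). Replicate 1 was the higher one in 337 of 536.

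**Figure D2:**
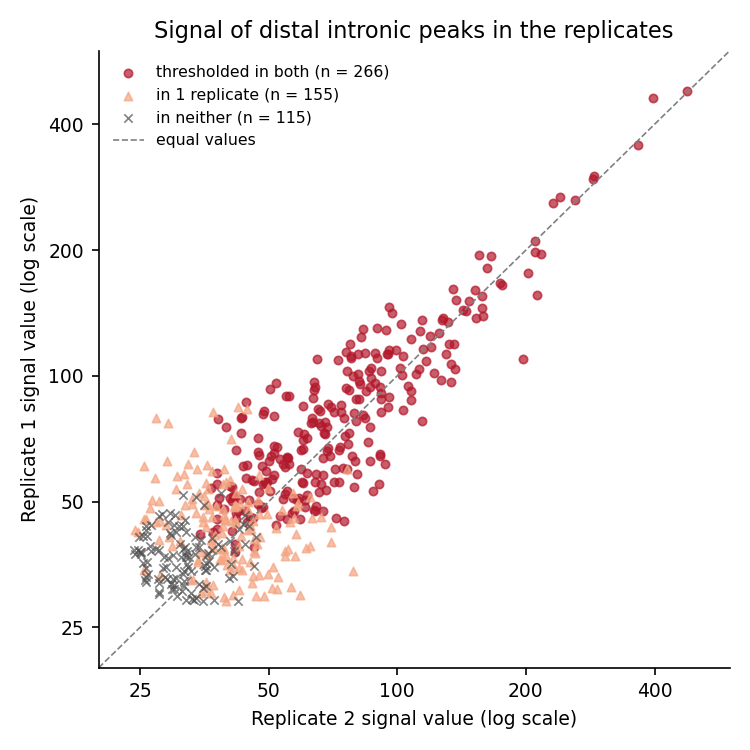
Signal value in replicate 1 (y axis, log scale) against replicate 2 (x axis, log scale) for the 536 distal intronic peaks with a ranked peak in both, with circles for peaks on both thresholded lists, triangles for 1 list and crosses for neither. Points lie along the dashed line of equal values, and the crosses fill the low corner.

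**Figure D3:**
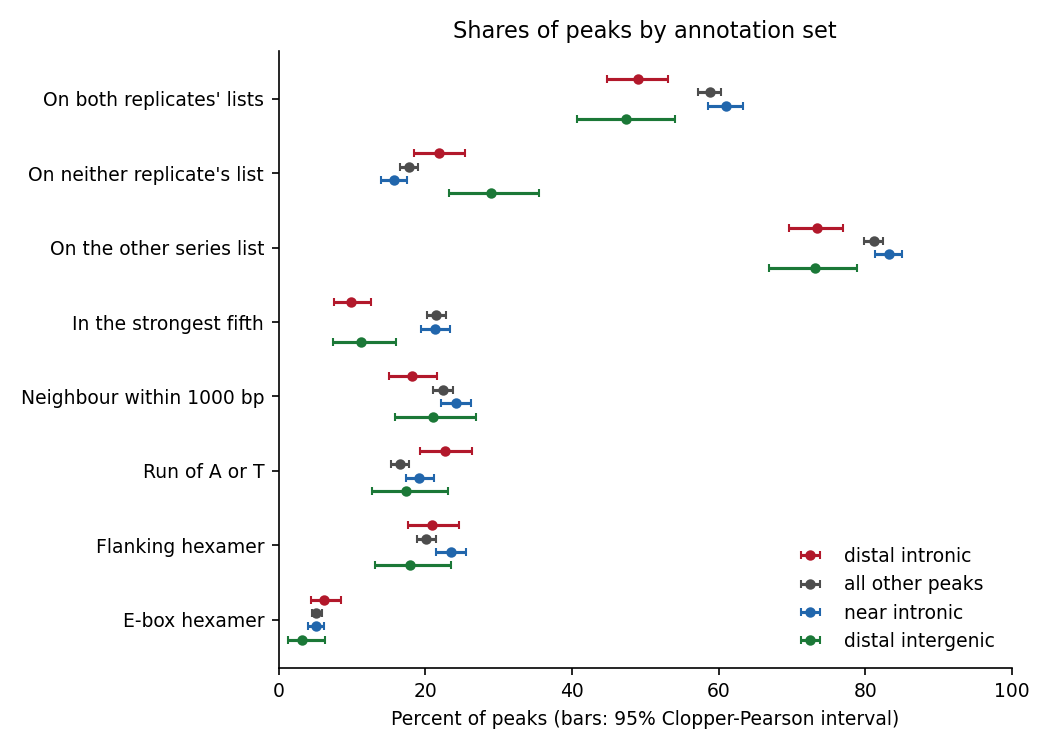
Percent of peaks (x axis) with each property (rows) in distal intronic peaks, all other peaks, near intronic peaks and distal intergenic peaks, with 95% exact intervals as bars. The flanking hexamer is ACAGTG and the E-box hexamer CAGGTG. Distal intronic peaks (48.9%) lie below all other peaks (58.8%) for both replicates' lists and overlap them for both hexamers.

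The number of peaks for a given length of intron fell with distance from a start site. Distal intronic sequence, 29.1 Mb on the arms, had 19.5 summits per Mb (95% exact Poisson interval 17.96 to 21.2), and near intronic sequence had 58.7 (56.0 to 61.6). The ratio was 0.332 (0.302 to 0.366; exact conditional binomial test, exact adjusted p = 3.14e-131). Distal intergenic sequence had 10.2 per Mb (8.93 to 11.7), and the ratio of distal intronic to distal intergenic density was 1.91 (1.63 to 2.24; exact adjusted p = 1.91e-17). Inside introns the density was 122 per Mb within 500 bp, 34.9 from 2000 to 5000 bp, 28.9 (321 peaks) from 5000 to 10000 bp, 20.2 (175) from 10000 to 20000 bp and 13.7 (71) from 20000 to 50000 bp. Beyond 50000 bp there was 1 peak in 4.14 Mb, 0.242 per Mb (0.00612 to 1.35). In intergenic sequence the same 4 distal classes had 18.2, 13.7, 4.17 and 0.378 per Mb. The peaks just inside the limit were at 5012 bp (CG46339, signal 75.5), 5022 bp (Mnt, 68.5) and 5023 bp (NetB, 96.0), and those just outside were at 4997 bp (Gug, 166.2 and Pdk, 78.4) and 4993 bp (Neto, 69.5). How mappability differs between these classes was not tested.

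**Figure D4:**
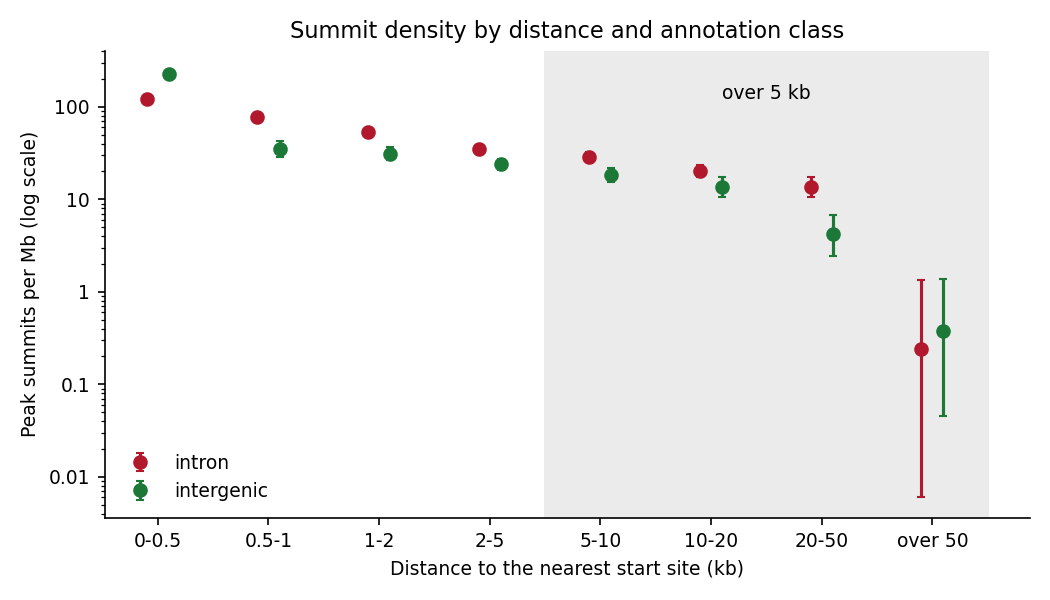
Summits per Mb of sequence (y axis, log scale) in introns (red) and intergenic sequence (green) by distance to the nearest start site (x axis, kb), with exact Poisson 95% intervals as bars and the distal classes shaded. Intronic density is 28.9 per Mb at 5 to 10 kb and 13.7 at 20 to 50 kb, against 18.2 and 4.17 in intergenic sequence.

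Distal intronic peaks were found on all 5 large arms. Chromosome X had 144, or 26.8 per Mb of distal intron (22.6 to 31.6), arm 2L had 102 (24.7, 20.1 to 29.9), 3L had 112 (20.8, 17.1 to 24.99), 3R had 135 (16.4, 13.7 to 19.4) and 2R had 75 (15.4, 12.1 to 19.3). Chromosomes 4 and Y had none in 0.249 and 0.828 Mb, which allows up to 14.8 and 4.45 per Mb (exact Poisson upper bounds). By the order of introns, first introns held 229 peaks and 32.1 per Mb (28.1 to 36.5), second introns 208 and 24.5 (21.3 to 28.1), and later introns 131 and 9.73 (8.14 to 11.5). The introns were long, with a median of 18058 bp and a range of 716 to 126467 bp. The summit lay at a median of 9118 bp from a start site and 4844 bp from the nearest exon, and 65 summits were within 1000 bp of an exon. Introns over 100000 bp had 3.91 peaks per Mb (2.08 to 6.68), against 28.9 (24.9 to 33.4) in introns from 10000 to 20000 bp. Of the 568, 317 (55.8%) had a start site of their own host gene as the nearest one. The share for distal intronic sequence as a whole was not counted.

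Most distal intronic peaks shared their host gene with another one. Of 1777 genes with intronic sequence over 5000 bp from a start site, 321 (18.1%) hosted a distal intronic peak, and 127 of these had 2 or more and held 374 of the 568. Of the 568, 52 overlapped another peak of the list, and in some hosts the only 2 summits were less than 336 bp apart. A protein-coding host was found for 562 of the 568. Where introns of several genes overlap, as at 32 summits within more than 1 gene, peak and sequence were given to 1 host, a protein-coding one if present and then the one with the shortest intron. Other summits within 1000 bp were found for 103 (18.1%), against 22.4% of all other peaks (exact adjusted p = 0.0486), 24.2% of near intronic peaks (0.00828) and 21.0% of distal intergenic peaks (0.451), with 21.8% over the whole list. In the list of replicate 1 alone the shares were 15.6% against 17.8% of all other peaks (0.608) and 21.4% of near intronic peaks (0.0839), so neither passed there. In the list of replicate 2 alone they were 9.62%, against 14.9% of all other peaks (0.0127) and 18.9% of near intronic peaks (2.06e-05). Over 9 alternatives, the difference passed in 3 against all other peaks and in 5 against near intronic peaks. It passed against neither set in the other thresholded list of the series or with limits of 2000 and 10000 bp.

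The gene kirre, which encodes an adhesion protein of muscle founder cells, hosted 13 peaks over 201837 bp, with signals from 2.31 to 158.9, and 7 were found in both replicates. It has 213.6 kb of distal intron, so its density was 60.9 per Mb (32.4 to 104.1). The corepressor gene sbb hosted 9 over 19378 bp, with signals from 90.2 to 527.0, and 8 were found in both replicates. Its density, in 35.6 kb, was 253.1 per Mb (115.7 to 480.5). The Hox cofactor gene hth hosted 7, with signals from 77.2 to 266.7. The translation factor gene eIF5B, the Frizzled receptor gene fz, the zinc finger factor gene luna and the methylcytosine dioxygenase gene Tet hosted 6 each, with strongest signals of 254.8, 316.0, 215.6 and 104.1. The 6 of Tet were weak, and 1 was on both replicates' thresholded lists. Another 11 genes hosted 5 each, of which Hr4, the Ski-family gene Snoo, the nuclear receptor gene ftz-f1, the netrin gene NetA and B4 had the highest summed signals. All 5 in Hr4 and all 5 in Snoo were found in both replicates, with strongest signals of 512.9 and 311.8. Those of B4 spanned 2880 bp and those of Snoo 48268 bp. Peaks of 1 gene share its chromatin and are not independent of each other.

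Hosts were also counted in gene lists, as members per Mb of the lists' distal intron beside 19.5 for all genes. These are descriptions without a test, and the lists were chosen with earlier results of these data known. Of the genes listed as nuclear receptors that have distal intron, 5 of 9 were hosts (15 peaks, 85.1 per Mb, 47.7 to 140.4). They were led by Hr4 (512.9), ftz-f1 (206.6) and Eip75B (105.0), and 10 of the 15 peaks were in Hr4 and ftz-f1. The peak of 870.6 in overlapping introns of CG46321 and Hr3 was counted under CG46321 and is not among the 15. Of the signalling genes 15 of 25 were hosts (25 peaks, 82.7 per Mb, 53.5 to 122.1). They were led by the receptor gene Notch (N, 307.8), the BMP ligand gene dpp (267.8) and its antagonist sog (161.3). Some of the 25 peaks are pairs of summits in 1 gene less than 336 bp apart. The entry Toll matched no symbol, so the host Tl, with 1 peak in 33.6 kb of distal intron, was not counted. The list of BTB, zinc finger and some other factors had 14 of 33 (38.9 per Mb, 26.9 to 54.3), led by sbb, mamo and luna. It also holds the ETS factor genes Eip74EF and pnt, and knrl, which is of the nuclear receptor family. Homeobox and Pax factors had 8 of 45 (34.8, 21.8 to 52.6), led by hth, ct (178.5) and Antp (169.5). Their share of hosts, 17.8%, was close to the 18.1% of all genes with distal intron. Of their 22 peaks, hth had 7, ct 4 and Antp 3. In axon guidance and neural adhesion there were 18 of 42 (53 peaks, 35.1 per Mb, 26.3 to 45.9), of which kirre alone gave 13, led by Fas3 (223.8), Ten-a (184.4) and NetA (178.8).

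Epithelial junction and polarity genes had 9 of 23 hosts (28.8 per Mb, 16.5 to 46.8), with fz, the polarity gene scrib (187.0) and the integrin gene mew (171.4) in front. Muscle and cytoskeleton genes had 4 of 17 (29.7, 9.65 to 69.3), with how (171.7), Zasp52 (105.6) and rols (86.7). The bHLH and Sox factors had 3 of 10 (32.9, 10.7 to 76.8), which were crp (249.4), tai (191.3) and dysf (79.2). Intervals of these 3 lists include the 19.5 of all genes. Ion channel and synapse genes had 4 of 41 hosts and 4.79 per Mb (1.76 to 10.4), led by dnc (152.1), Ca-alpha1T (111.3) and Ca-beta (81.1). RNA-binding and splicing genes had 5 of 19 and 7.49 per Mb (3.23 to 14.8), led by brat (108.4), Rbfox1 (96.6) and pum (94.0). The Snail and Scratch family had no gene with intron over 5000 bp from a start site, so esg itself could not host one.

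**Figure D5:**
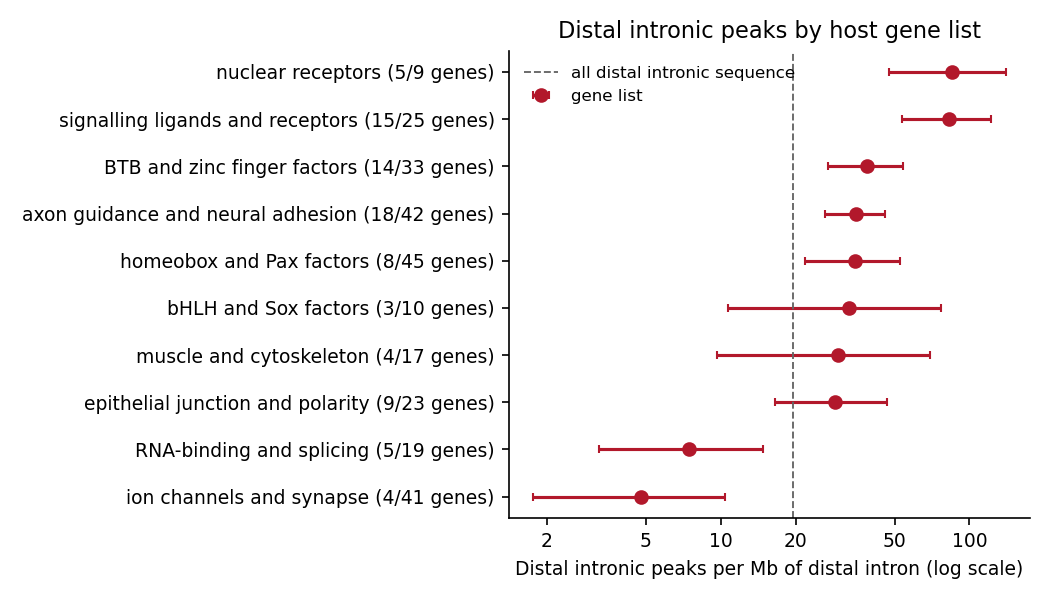
Distal intronic peaks per Mb of distal intron (x axis, log scale) for 10 gene lists (rows, with the hosts over the genes that have distal intron), with exact Poisson 95% intervals as bars and 19.5 per Mb for all distal introns as the dashed line. Nuclear receptor (85.1) and signalling (82.7) genes are at the upper end and ion channel genes (4.79) at the lower end.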

How the data were processed

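Peak lists of 2 replicate anti-GFP ChIP-seq libraries from esg-eGFP embryos were analysed as deposited, in dm6 coordinates per the labels. The authors deposited with each peak a summit and a signal value, whose unit is not stated, and it was used only to describe, rank and filter peaks within a list. Fragments were sheared to 200 to 800 bp, per the labels. Read depth is unknown, and neither aligner nor peak caller is given in the sources used here. The main list was the one named conservative, with 4419 peaks, of which 4397 were on the arms. Replicates 1 and 2 had 3105 and 3351 thresholded peaks on the arms.

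Annotation was Ensembl release 115 (BDGP 6.54) without transposable elements, and sequence was the RefSeq assembly, whose arms have the same lengths. Positions are 1-based. Peaks were found again by an overlap of 1 bp. The replicate signal of a peak is that of the strongest ranked peak holding its summit. Tests were two-sided: Fisher's exact over 8 properties and 3 sets, exact conditional binomial for 2 densities, and exact McNemar for all hexamers, each with Benjamini-Hochberg adjustment at 0.05. Interval bounds are exact at 95%. The hexamer and share tests were tested on simulated data. Of 399 gene list entries, 393 matched a symbol, 2 an older one and 4 none.

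The members, gene lists and tests were chosen with earlier results of these data known. Genes named were hosts of the strongest 15 peaks, the 12 hosts with most peaks (ties by summed signal) and those nearest the distance limit. Also named were up to 3 per list, genes that a list left out or that differ from its name, and hosts of the sequences shown. Alternatives were other lists, thresholds, distances, windows, controls and transcripts. The window of 150 bp, the orientation of hexamers and the bases beside them were chosen after seeing the data. Tools were scipy 1.17.1, pandas 2.3.3, numpy 2.4.6, matplotlib 3.10.9 and Python 3.11.15.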

Additional observations from a re-analysis of the deposited data

How the results depend on the processing

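Of 314 values under alternatives, 224 kept their direction and their side of the threshold or, for counts and shares with no test, stayed within 1.5 times or within the interval of the value reported. Both density ratios did so in all 9 alternatives, with 0.250 to 0.333 against near intronic and 1.49 to 2.22 against distal intergenic sequence, and the share in the strongest 20% did against all other peaks (-13.0 to -9.57 points) and near intronic peaks (-12.0 to -9.79). Differences are given in percentage points, as the share of distal intronic peaks minus that of the named set, and the causes were not tested. Every sign change listed concerns a difference that did not pass the test under that alternative.

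With the lists of single replicates (without replicate 1 or 2), there were 358 to 416 distal intronic peaks, 11.5% to 12.4% of the list. The hexamers more frequent at summits numbered 16 to 17 and the less frequent 3 in both. CAGGTG differed by -0.75 to -0.66 from all other, by -0.63 to -0.58 from near intronic and by -1.18 to 2.21 from distal intergenic peaks. ACAGTG differed by -0.24 to 0.39 from all other and -2.55 to -1.45 from distal intergenic peaks. Neighbouring peaks differed by -5.27 to -2.16 from all other and -9.26 to -5.71 from near intronic peaks, and the run of A or T by 4.75 to 5.46 from all other peaks.

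With the other series list, the share on both replicate lists was -6.06 from all other peaks, that on neither list 1.57 from all other and 2.51 from near intronic peaks, the run of A or T 4.40, and neighbours -2.04 from all other and -4.38 from near intronic peaks, none of which passed. There 16 hexamers were more and 1 less frequent. In the upper 50% by signal there were 226 peaks (10.3%). The share on both lists was -0.68, -0.74 and -4.59 from all other, near intronic and distal intergenic peaks, that on neither list 0 from both all other and near intronic peaks, that on the other series list -0.24, -0.22 and -0.44, and neighbours -4.58 from all other peaks. There 9 hexamers were more and 0 less frequent. The difference from distal intergenic peaks on the other series list was -0.38 without signals under 20 and -0.75 with overlapping peaks counted once.

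With a limit of 2000 bp there were 1027 peaks (23.4%), with 71 hexamers more and 29 less frequent and CAGGTG 2.96 points above its flanks. Against distal intergenic peaks, the share on both lists (6.50), on neither (-6.41), with ACAGTG (5.72) and with a run of A or T (5.49) then passed, and the strongest 20% was 3.18. Neighbours were -1.14 from all other and -3.16 from near intronic peaks. With a limit of 10000 bp there were 247 (5.62%), with 11 hexamers more and 0 less frequent. The share on both lists was -1.72 from distal intergenic peaks, on neither 2.55 from all other and 3.84 from near intronic peaks, on the other series list -5.01 from distal intergenic peaks, runs of A or T 1.39 and -1.60 and neighbours -3.38 and -4.53 from all other and near intronic peaks. With protein-coding transcripts only, distal intronic peaks made up 14.5% of the list. The differences from distal intergenic peaks were -0.041 on both lists, -1.34 on the other series list and 7.08 for ACAGTG, which passed, and neighbours were -3.51 from all other peaks.

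With replicate summits within 100 bp, the share on neither list was 4.17 from all other peaks, and with each peak covered by at least 50% it was 4.09, with -0.11 from distal intergenic peaks on both lists. With ranked replicate lists, the share on both was 0.086 from all other and -0.29 from near intronic peaks, and on neither -0.026 and 0. In windows of 50 bp, ACAGTG was -1.45 from all other and -0.25 from distal intergenic peaks and runs of A or T 1.23 from all other and -0.17 from near intronic peaks, with 2 hexamers more and 4 less frequent. In windows of 150 bp, chosen after seeing the data, 53 were more and 15 less frequent, of which 20 were among the 25. Flanks 1000 bp away, with no match on GC content, gave 195 more and 237 less frequent towards lower coordinates and 192 and 214 towards higher ones, with CAGGTG at -0.53 and -0.70. Read depth, mappability and the control library were not available here, and limit what any of these shares can say.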
